A study of Homo sapiens with 2 samples.

Results

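A set of 9 genes that are used as markers of outer radial glia was followed through 2 split-seq libraries of human brain organoids. The genes were HOPX, PTPRZ1, TNC, FAM107A, LIFR, IL6ST, STAT3, MOXD1 and PTN. They were taken as a list by gene name, and all 9 of 9 were found among the 62704 genes of each count table. The first library held single cells and the second held nuclei, and each was deposited under 1 sample name.

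The cells library pooled organoids grown from H9, an established human embryonic stem cell line. It mixed CO, control organoids made with a commercial cerebral organoid kit and sampled at days 45, 55 and 70, with DISS, organoids taken apart at day 45, reaggregated and sampled at days 48, 55 and 70. It also held CONS, organoids freed of Matrigel on day 13 and enclosed in 3% agarose, which the study collected at day 55. The nuclei library was the study's control for losses on dissociation and, per its methods, pooled nuclei from whole frozen day 45 organoids with nuclei from organoids dissociated on that day, although its treatment label reads Control/Dissociated/Embed. No label tied a barcode or a first-round well to an organoid or a condition, so CO, DISS and CONS could not be compared, and each library was 1 sample. Nuclei against whole cells, day 45 against the longer time course, and one set of treatments against another cannot be told apart in any comparison of the libraries.

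Outer radial glia are progenitors of the developing human cortex that sit away from the ventricle, keep a long basal process and produce neurons and further progenitors. They share a core program with the ventricular radial glia from which they arise and are set apart by genes of the extracellular matrix, of growth factor binding and of the LIF pathway. PTN is a secreted ligand and PTPRZ1 is a receptor phosphatase that binds it. TNC is a matrix glycoprotein. LIFR and IL6ST form the receptor for LIF, and STAT3 is the transcription factor that the receptor activates. HOPX is a small homeodomain protein that binds no DNA by itself, FAM107A is an actin-associated protein, and MOXD1 belongs to the copper monooxygenases.

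Barcodes were kept when they had more than 500 genes, more than 1000 transcripts and a mitochondrial share of at most 20%, which left 20178 barcodes of cells and 14228 of nuclei. Their median depth was 2615 transcripts in cells and 3890 in nuclei. The deepest 5% of barcodes held 42.0% of the transcripts of the kept cells and 20.0% of those of the kept nuclei, and no barcode was removed as a doublet. Of the kept barcode names, 99 occurred in both libraries. To compare barcodes of unequal depth, each was thinned to 1000 transcripts. A radial glia-marker barcode then had at least 3 of 12 radial glia markers (such as SOX2, PAX6, GLI3 and SLC1A3) and at most 1 of 12 neuronal and 1 of 8 choroid plexus markers. This class held 2193 barcodes of cells and 1932 of nuclei, 10.9% and 13.6% of those kept. None of the 9 genes was among the class markers. At the limit of the class, 1192 of the cells and 1321 of the nuclei had exactly 3 markers, and 1612 and 2355 barcodes fell short by 1 marker. Neuron-marker barcodes, with at least 3 neuronal and at most 1 radial glia and 1 choroid plexus marker, numbered 4313 and 3380, and choroid plexus-marker barcodes, with at least 3 choroid plexus markers, numbered 938 and 359. Mixed barcodes, with at least 3 radial glia and 3 neuronal markers and fewer than 3 choroid plexus markers, numbered 1265 and 93. The remaining 11469 cells and 8464 nuclei, 56.8% and 59.5% of those kept, were left unassigned. All intervals below are exact 95% intervals that cover counting error only, and no p-value was made, because barcodes are not replicates.

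The 9 genes differed widely in how often they were seen in radial glia-marker barcodes. At 1000 transcripts the intervals of PTPRZ1 overlapped between radial glia-marker and neuron-marker barcodes in both libraries. PTN, LIFR, IL6ST and TNC were seen more often in radial glia-marker than in neuron-marker barcodes in both libraries. FAM107A was so in cells, while in nuclei its level in the class lay below that of free RNA, and HOPX and MOXD1 were each seen in under 1% of them. Among the radial glia-marker, neuron-marker and choroid plexus-marker classes, FAM107A and STAT3 were seen most often in the last.

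PTN, the ligand, was detected in 318 of 2193 radial glia-marker cells, or 14.5% (13.1 to 16.0), and in 8.14% (7.34 to 8.99) of neuron-marker cells. In nuclei the shares were 17.1% (15.4 to 18.8) and 4.47% (3.80 to 5.22). Radial glia-marker barcodes had the higher share in 22 of the 27 cells wells with at least 20 barcodes of each class, in 12 of 12 nuclei wells and in 8 of 8 cells sub-libraries. The first-round well is the well in which a cell or nucleus got its first barcode, and a sub-library is an aliquot amplified separately at the end. In choroid plexus-marker barcodes PTN was found in 7.68% of cells and 3.62% of nuclei.

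PTPRZ1, the receptor for PTN, was the most often detected of the 9. It was seen in 49.5% (47.4 to 51.6) of radial glia-marker cells and in 49.6% (48.1 to 51.1) of neuron-marker cells, and in 43.8% and 42.3% of the corresponding nuclei. The radial glia-marker share was the higher in 10 of 27 cells wells and in 7 of 12 nuclei wells, so neither class led. The choroid plexus-marker share was far lower, at 20.7% (18.1 to 23.4) of cells and 7.52% (5.01 to 10.8) of nuclei. At this depth PTPRZ1 separated both neural classes from choroid plexus and did not separate radial glia-marker from neuron-marker barcodes.

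LIFR, the LIF receptor subunit, was detected in 9.30% (8.12 to 10.6) of radial glia-marker cells against 6.45% (5.73 to 7.22) of neuron-marker cells. In nuclei the gap was wider, with 10.8% (9.47 to 12.3) against 3.14% (2.57 to 3.78). The radial glia-marker share was higher in 26 of 27 cells wells and in 12 of 12 nuclei wells. IL6ST, which encodes the shared signalling subunit gp130, was found in 4.92% (4.06 to 5.92) against 2.36% (1.93 to 2.86) of cells and in 3.83% against 1.18% of nuclei. It was higher in radial glia-marker barcodes in 22 of 27 cells wells and in 10 of 12 nuclei wells. In choroid plexus-marker barcodes, however, IL6ST was in 4.80% (3.52 to 6.37) of cells and 2.79% (1.34 to 5.06) of nuclei, with intervals that overlapped those of radial glia-marker barcodes. Without thinning it was in 18.1% of choroid plexus-marker and 13.4% of radial glia-marker nuclei, but their median depths were 6792 and 3613 transcripts. In cells the unthinned shares were 22.4% and 22.7%. Among barcodes above 5000 transcripts, thinned to 5000, IL6ST was in 11.8% of choroid plexus-marker and 14.8% of radial glia-marker nuclei. In cells these shares were 24% and 19.5%, and the intervals overlapped in both libraries. Radial glia-marker nuclei with IL6ST held 0.392 (0.262 to 0.563) transcripts of the 8 choroid plexus markers per 1000 transcripts, against 0.142 (0.125 to 0.160) in those without, while in cells the values were 0.333 (0.233 to 0.461) and 0.465 (0.436 to 0.495). Their part in the IL6ST shares was not tested.

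STAT3, downstream of these receptor subunits, differed in direction between the libraries at this depth, with overlapping intervals in both. It was seen in 7.30% (6.24 to 8.47) of radial glia-marker cells and 6.70% (5.97 to 7.49) of neuron-marker cells, and in 3.57% (2.79 to 4.50) and 4.47% (3.80 to 5.22) of nuclei. In nuclei it was lower in radial glia-marker than in neuron-marker barcodes under all 12 settings tried for detection, and without thinning the shares were 12.4% and 18.8%. Among the radial glia-marker, neuron-marker and choroid plexus-marker classes its share was highest in the last, at 9.59% (7.79 to 11.7) of cells and 8.36% (5.71 to 11.7) of nuclei.

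TNC was rare but leaned to the radial glia-marker class in both libraries. It was found in 66 radial glia-marker cells, or 3.01% (2.34 to 3.81), and in 32 neuron-marker cells, or 0.742% (0.508 to 1.05). In nuclei 23 radial glia-marker barcodes, or 1.19% (0.756 to 1.78), and 7 neuron-marker barcodes, or 0.207% (0.0833 to 0.426), held it. All 8 cells sub-libraries had the higher share in radial glia-marker barcodes, while among wells 14 of 27 had it higher and 3 lower. The radial glia-marker cells with TNC came unevenly from the wells: it was seen in 18.4% of those in well 48 and 16.3% of those in well 3, and in none of those in 14 of 29 wells with at least 20 such barcodes.

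FAM107A was detected in 36 radial glia-marker cells, or 1.64% (1.15 to 2.27), and in 0.487% (0.302 to 0.743) of neuron-marker cells. Its share in choroid plexus-marker cells was 5.33% (3.98 to 6.97), above both. The same order held in nuclei, with 0.466% (0.213 to 0.882), 0.148% (0.0480 to 0.345) and 4.74% (2.78 to 7.47). Without the largest nuclei well, and with a separate draw of transcripts, FAM107A was in 1.07% of radial glia-marker and 0.178% of neuron-marker nuclei, so its level in the class rests on few barcodes. Without thinning, FAM107A was seen in 20.5% of choroid plexus-marker cells and 20.3% of choroid plexus-marker nuclei, against 9.48% and 2.74% of radial glia-marker barcodes, with median depths of 3224.5 and 6792 transcripts against 4062 and 3613.

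At 1000 transcripts HOPX and MOXD1 gave too few counts for a comparison of classes. HOPX was found in 5 radial glia-marker cells, or 0.228% (0.0741 to 0.531), and in 0.185% of neuron-marker cells. In nuclei it was found in 5 radial glia-marker barcodes, or 0.259%, and in 0 of 3380 neuron-marker barcodes, which at 1000 transcripts allows a share of up to 0.0888% by 3 counts (exact upper limit 0.109%). Without thinning 7 of these 3380 nuclei, or 0.207%, held HOPX. MOXD1 was found in 12 radial glia-marker cells (0.547%) and 6 radial glia-marker nuclei (0.311%), against 0.325% and 0.178% of neuron-marker barcodes.

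**Figure D1:**
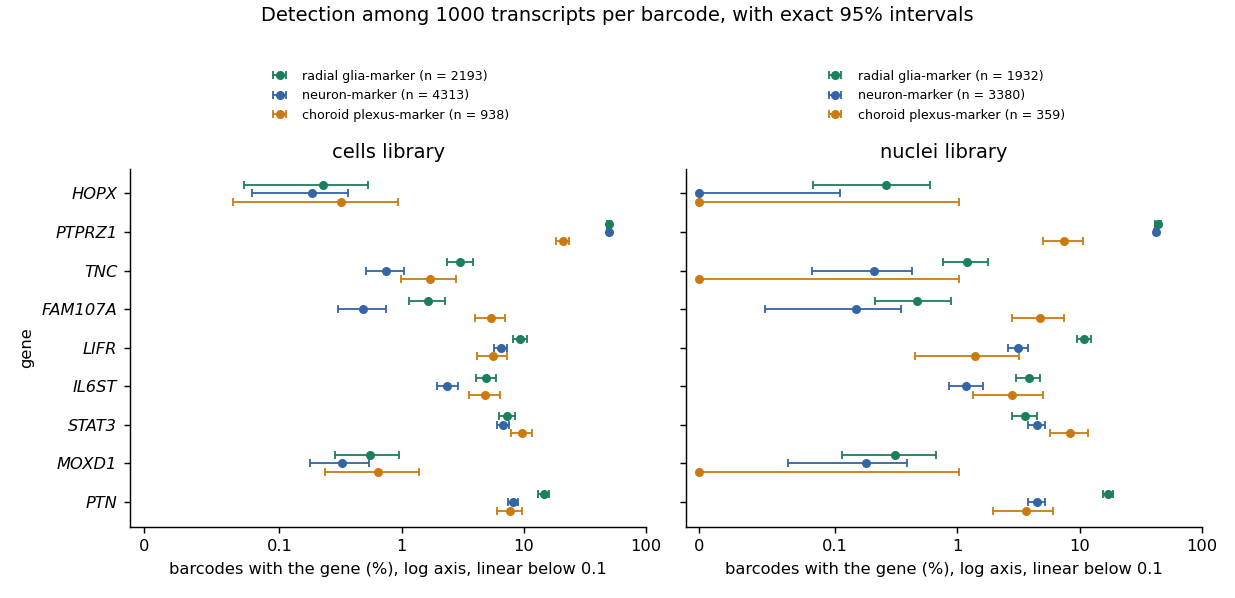
Percent of barcodes with each gene among 1000 transcripts (horizontal, log axis that is linear below 0.1) in radial glia-marker, neuron-marker and choroid plexus-marker barcodes of the cells (left) and nuclei (right) libraries, with exact 95% intervals. PTPRZ1 had overlapping intervals in radial glia-marker and neuron-marker barcodes, PTN and LIFR were higher in the former, and FAM107A was highest in choroid plexus-marker barcodes.

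Free RNA in the barcodes bears on the rare genes. Barcodes of 10 to 100 transcripts, taken as a measure of RNA outside cells, held HOPX at 3.32 counts per 1000000 transcripts (CPM) in the cells library, and radial glia-marker cells held it at 3.34 (2.52 to 4.35). MOXD1 stood at 5.56 CPM in these small barcodes and at 4.62 (3.64 to 5.78) in radial glia-marker cells. In nuclei HOPX was at 1.73 (0.970 to 2.86) CPM against 1.37, and MOXD1 at 4.04 (2.82 to 5.62) against 3.82. The intervals of both genes held the free RNA level in both libraries. The part of free RNA in a kept barcode was not measured, so these levels cannot tell expression from free RNA. TNC stood at 42.6 (39.5 to 45.9) CPM in radial glia-marker cells, above 24.7 in the small barcodes, and PTN at 195 (189 to 202) against 129. In neuron-marker cells TNC was at 7.59 and PTN at 80.8 CPM, both below the small barcodes. FAM107A was at 21.0 (18.9 to 23.4) CPM in radial glia-marker cells against 17.2 in the small barcodes, and in radial glia-marker nuclei at 7.97 (6.2 to 10.1) against 11.2. The same limit holds for the FAM107A share in these nuclei. STAT3 in radial glia-marker cells, at 74.7 CPM, was at the level of the small barcodes, 74.2, and in nuclei, at 37.1 (33.1 to 41.4), it was below their 46.9. LIFR was at 106 (101 to 111) CPM against 83.8 in cells and 122 (115 to 129) against 88.0 in nuclei. IL6ST was at 49.7 (46.3 to 53.2) against 41.1 in cells and 36.5 (32.6 to 40.8) against 29.5 in nuclei. PTPRZ1 was at 726 (713 to 739) against 692 in cells and 656 (640 to 674) against 577 in nuclei. In neuron-marker cells PTPRZ1 was at 826 (816 to 835) CPM, above both the radial glia-marker cells and the small barcodes. LIFR at 66.0, IL6ST at 26.4, STAT3 at 67.0 and FAM107A at 5.92 CPM in neuron-marker cells were each below the small barcodes. In nuclei TNC was at 17.7 (15 to 20.7) against 8.55, and PTN at 256 (245 to 266) against 143.

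Detection was then followed against the number of radial glia markers, in barcodes with at most 1 neuronal and 1 choroid plexus marker. PTPRZ1 rose from 28.6% of cells with 0 markers to 49.5% with 3 and 50.3% with 5 or more, and from 23.1% to 43.0% and 46.1% in nuclei. PTN went from 9.15% (7.25 to 11.4) of cells with 0 markers to 13.8% (11.9 to 15.9) with 3, 16.1% (13.3 to 19.1) with 4 and 13.9% (10.5 to 17.9) with 5 or more. In nuclei PTN went from 6.99% (5.42 to 8.83) to 15.4%, 20.4% (16.9 to 24.2) and 21.7% (14.6 to 30.4). The intervals of PTPRZ1 and of PTN at 3, 4 and 5 or more markers overlapped in both libraries. TNC was seen in 0.494% of cells with 0 markers, in 2.62% with 1, 2.61% with 2 and 2.52% with 3, and in 4.17% (2.35 to 6.78) with 5 or more. In nuclei TNC was at 0.873% with 0 markers, 0.757% with 3 and 2.22% (1.11 to 3.93) with 4. LIFR was in 7.29% (5.60 to 9.31) of cells with 0 markers, 9.56% (7.95 to 11.4) with 3 and 9.44% (6.63 to 12.9) with 5 or more. IL6ST was in 4.70% (3.35 to 6.39), 4.78% (3.64 to 6.15) and 6.11% (3.87 to 9.11) of these cells. The intervals of each gene overlapped along this range in cells. LIFR in nuclei went from 7.42% (5.81 to 9.32) with 0 markers to 12.5% (9.72 to 15.7) with 4. FAM107A in nuclei went the other way, from 1.53% (0.838 to 2.55) with 0 markers to 0.202% (0.00510 to 1.12) with 4, and these intervals overlapped. STAT3 in nuclei went from 8.41% (6.69 to 10.4) with 0 markers to 3.79% (2.82 to 4.96) with 3 and 4.35% (1.43 to 9.85) with 5 or more. For cells its shares were 7.42% (5.71 to 9.44) with 0 and 6.71% (5.36 to 8.28) with 3. IL6ST in nuclei was at 2.73% (1.77 to 4.00) with 0 and 3.86% (2.89 to 5.05) with 3, with overlapping intervals.

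**Figure D2:**
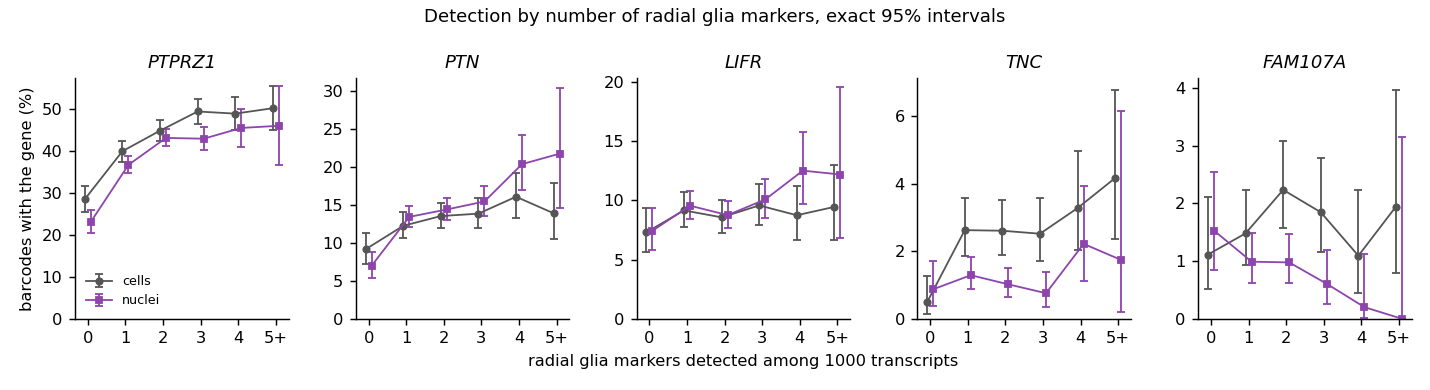
Percent of barcodes with the gene (vertical, from 0, with a scale of its own for each of 5 genes) by the number of radial glia markers detected (horizontal, 5+ for 5 or more), in cells and nuclei, with exact 95% intervals. PTPRZ1 and PTN were higher with 3 markers than with 0 in both libraries, PTN in cells was at 13.8% with 3 and 13.9% with 5 or more, and FAM107A in nuclei was at 1.53% with 0 and 0.202% with 4, with overlapping intervals.

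Division markers divided the radial glia-marker barcodes further. LIFR was seen in 6.82% (5.04 to 9) of the 674 radial glia-marker cells with at least 2 of 8 division markers, and in 10.7% (8.81 to 12.8) of the 994 with none. In nuclei the shares were 8.82% (6.26 to 12) of 408 and 12% (10.2 to 14.0) of 1158. PTPRZ1 was lower in dividing nuclei, with 36.5% (31.8 to 41.4) of dividing and 45.9% (43.0 to 48.9) of the others, while in cells it was 47.0% and 49.4%. STAT3 was at 4.90% (3.39 to 6.81) of dividing cells against 8.45% (6.80 to 10.4). For TNC the shares were 3.56% and 3.12% in cells, with intervals that overlapped widely.

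Co-detection asked whether the 9 genes marked the same radial glia-marker barcodes. For each of the 36 pairs, the number of barcodes with both genes was divided by the number that the product of their single shares gives. At 1000 transcripts per barcode, 16 pairs in cells and 10 in nuclei had a product of at least 5 barcodes. Over these pairs the median ratio was 0.993 in cells and 1.09 in nuclei, so the genes of these pairs occurred together about as often as their single shares give. Pairs with a smaller product were not ranked: HOPX with TNC, for example, had 1 joint barcode in each library. Every pair of HOPX, TNC, FAM107A and MOXD1 with each other fell below the limit, as TNC with FAM107A at 1.08 in cells and 0.107 in nuclei. Co-detection of these rarer genes with each other was therefore not assessed at 1000 transcripts.

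As a reference at the same depth, the ratio was also taken for pairs of 8 genes of dividing cells, such as MKI67, TOP2A and CENPF. In the same radial glia-marker cells its median was 2.19, and the interval lay above 1 for 28 of 28 pairs. In radial glia-marker nuclei the median was 2.78, with 25 of 25 pairs above 1. Among the 16 and 10 marker pairs with a product of at least 5 barcodes, the highest ratio was 1.39 in cells and 1.43 in nuclei. Both lay below the lowest division pair, at 1.74 and 2.12, which at 5000 transcripts, given below, was not so. Pairs with PTPRZ1, 7 of the 16 and 5 of the 10, cannot exceed a ratio of 2.02 in cells or 2.28 in nuclei, so they could not reach the division medians. Among the 9 and 5 pairs without PTPRZ1 the highest ratios were likewise 1.39 and 1.43, and the medians were 0.958 and 1.07.

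In cells 0 of 16 marker pairs, and in nuclei 2 of 10, had an interval above 1. PTPRZ1 and PTN were found together in 181 radial glia-marker nuclei against 145 from their single shares, a ratio of 1.25 (1.08 to 1.45). LIFR and PTN were found together in 51 against 35.7, a ratio of 1.43 (1.06 to 1.88). Among radial glia-marker nuclei with LIFR, 24.4% also held PTN, against 16.2% of those without. The odds ratio for PTPRZ1 with PTN was 1.71 over all wells and 1.55 within wells, and that for LIFR with PTN 1.67 and 1.66. In cells the LIFR and PTN ratio was 1.39 (0.995 to 1.88), and its odds ratio was 1.55 over all wells and 1.28 within wells. The PTPRZ1 and PTN ratio in cells was 1.11 (0.954 to 1.29). These intervals did not hold for every draw of transcripts: another draw gave 2 of 16 pairs above 1 in cells and 1 of 11 in nuclei, and without the largest nuclei well the number was 0 of 10.

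For the 2 subunits of the LIF receptor the ratio was below 1 at 1000 transcripts and above 1 at 5000, and its interval held 1 at both depths. At 1000 transcripts LIFR and IL6ST shared 8 radial glia-marker cells against 10.0 from single shares, a ratio of 0.796 (0.344 to 1.57), and 6 nuclei against 8.01, a ratio of 0.750 (0.275 to 1.63). At 5000 transcripts they shared 67 cells against 61.8, a ratio of 1.08 (0.841 to 1.38), and 40 nuclei against 32.1, a ratio of 1.25 (0.891 to 1.70). At 1000 transcripts LIFR with STAT3 gave 15 cells against 14.9 and 8 nuclei against 7.46. The interval of LIFR with STAT3 in nuclei reached 2.11.

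Per barcode, 66.6% (64.6 to 68.6) of radial glia-marker cells held at least 1 of the 9 genes, 20.5% (18.8 to 22.2) at least 2 and 3.56% (2.82 to 4.42) at least 3. The single shares give 67.3%, 20.3% and 3.04%. PTPRZ1 alone was in 49.5% of radial glia-marker and 49.6% of neuron-marker cells, and these counts per barcode were not made for other classes. In nuclei the observed shares were 59.8% (57.6 to 62.0), 17.9% (16.2 to 19.6) and 3.57% (2.79 to 4.50), and the single shares give 62.3%, 16.9% and 2.04%. In nuclei the share with at least 3 was thus above its single-share value and the share with at least 1 below it. The single shares were pooled over wells that differed, as for PTN with 6.41% to 31.6% of the radial glia-marker nuclei of a well, and no within-well value was made for these counts. At this depth of 1000 transcripts no radial glia-marker barcode held more than 4 of the 9, while at 5000 transcripts the most was 6 in cells and 7 in nuclei.

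A deeper draw was possible only for the barcodes with more transcripts, so both the depth and the barcodes differ from the values above. In the 967 cells and 582 nuclei of the class with more than 5000 transcripts, thinned to 5000, PTPRZ1 was seen in 89.7% and 93.5%, PTN in 41.8% and 50.5%, LIFR in 32.7% and 37.3%, and HOPX in 1.45% and 0.859%. At least 2 of the 9 were then found in 74.6% (71.7 to 77.3) of cells and 73.4% (69.6 to 76.9) of nuclei, against 77.2% and 76.1% from single shares. With PTPRZ1 in most barcodes, a pair that holds it cannot exceed a ratio of 1.12 in cells or 1.07 in nuclei, so the ratio says little of these pairs at this depth. PTPRZ1 and PTN, for example, had ratios of 1.04 and 1.02 but odds ratios of 1.97 and 2.05, with PTN in 43.4% of cells with PTPRZ1 and 28.0% of those without, and in 51.7% and 34.2% of nuclei. Over the pairs without PTPRZ1 the median ratio was 1.1 over 20 pairs in cells and 1.21 over 10 in nuclei, and 0 of them had an interval above 1. The highest was 1.54 (0.704 to 2.92) for HOPX with PTN in 9 cells and 1.53 (0.982 to 2.28) for TNC with PTN in 24 nuclei. Both lay above the lowest division pair at this depth, 1.35 and 1.38, and near the division medians of 1.57 and 1.55. The division intervals lay above 1 for 28 of 28 pairs in cells and 27 of 28 in nuclei. In these barcodes PTPRZ1 in nuclei differed between classes, with 93.5% (91.1 to 95.3) of radial glia-marker against 80.2% (77.9 to 82.3) of neuron-marker barcodes, whereas in cells it was 89.7% and 88.3%. Thinned to 1000 transcripts in a separate draw, nuclei above 5000 transcripts held PTPRZ1 in 50.3% of radial glia-marker and 44.5% of neuron-marker barcodes. Over all kept nuclei at 1000 transcripts these shares were 43.8% and 42.3%. The shares thus differed with the choice of barcodes at 1000 transcripts, and with depth in nuclei above 5000 transcripts. STAT3 in nuclei differed the other way, with 10.8% (8.42 to 13.6) of radial glia-marker against 18.0% (16.0 to 20.1) of neuron-marker barcodes, and in cells it was 23.9% (21.2 to 26.7) and 28.0% (25.8 to 30.2). MOXD1 was in 2.90% (1.93 to 4.16) of radial glia-marker and 1.22% (0.746 to 1.87) of neuron-marker cells. For nuclei these shares were 1.55% (0.709 to 2.92) and 0.223% (0.0460 to 0.649). Choroid plexus-marker barcodes held MOXD1 in 3.67% of cells and 3.38% of nuclei. FAM107A was in 3.09% (1.84 to 4.84) of radial glia-marker, 0.891% (0.461 to 1.55) of neuron-marker and 11.4% of choroid plexus-marker nuclei.

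Left unthinned, the same barcodes gave another picture, in which 25 of 33 pairs in cells and 14 of 24 in nuclei had an interval above 1. Depth differences between barcodes are not removed in this count.

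**Figure D3:**
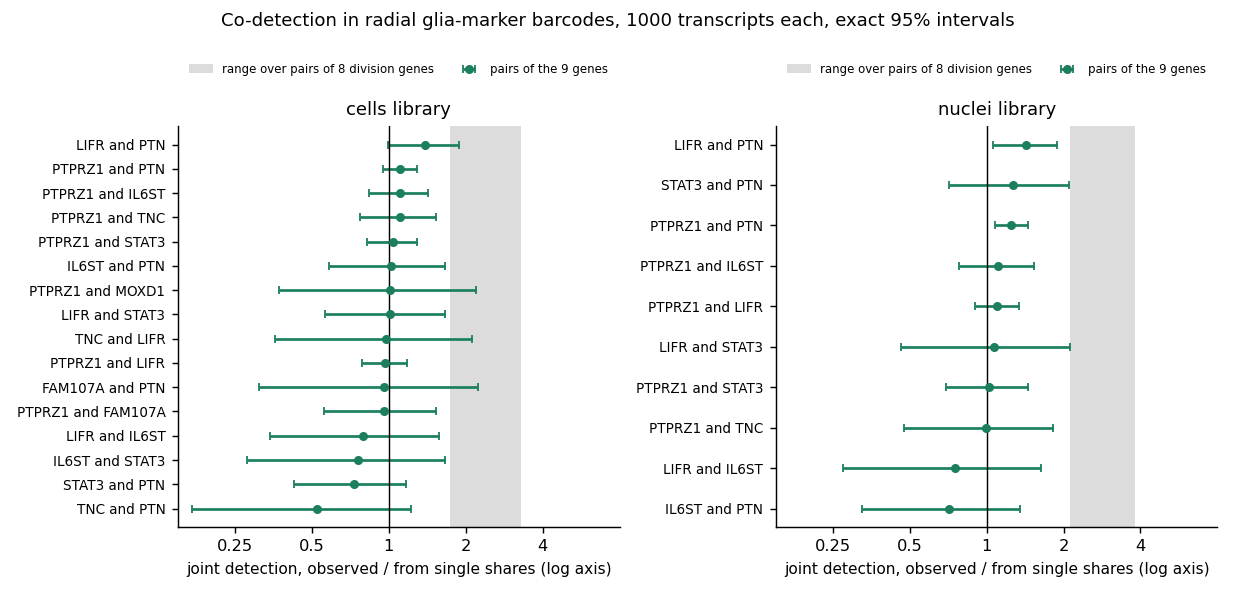
Ratio of observed joint detection to the number from single shares (horizontal, log axis) for each pair of the 9 genes with a product of at least 5 barcodes, in radial glia-marker barcodes thinned to 1000 transcripts, with exact 95% intervals. All points lie left of the grey band, which spans the ratios of pairs of 8 division genes in the same barcodes, and only LIFR with PTN and PTPRZ1 with PTN in nuclei have intervals wholly above 1.

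Genes that went most with each marker across the radial glia-marker barcodes were ranked by the phi coefficient of detection, over 2193 cells and 8236 candidate genes and over 1932 nuclei and 7525. Barcodes share their library, well and free RNA, and all coefficients are descriptions. Each neighbour named was picked as one of the highest of 8236 or 7525 values. The level that such a pick reaches between unrelated genes was not measured. Leaving out HOPX and MOXD1, whose lists rest on 5 and 12 barcodes in cells and 5 and 6 in nuclei, the highest coefficient was 0.162, for KIF26B with TNC in 23 nuclei. For PTN the first was ENSG00000271860 in both libraries, with 0.149 in cells and 0.160 in nuclei, followed in nuclei by SLC1A3, the glial glutamate transporter and a marker of the class itself, with 0.157. Among PTN-positive nuclei 57.0% held SLC1A3, against 36.5% of the others. For PTPRZ1 in nuclei the first was PTN itself with 0.101, and in cells TENM4 with 0.0899. For TNC in cells the first was SLIT2, an axon guidance ligand, with 0.129, and for LIFR it was MEF2C-AS2 in cells with 0.111 and NEAT1 in nuclei with 0.119.

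Pooled levels were compared between the libraries as CPM over all kept barcodes, which cannot tell fewer cells with a gene from less RNA of it per cell. A gene was called when it passed 2-fold and had at least 10 CPM in at least 1 library. Of 11665 genes that passed this floor, 67 (0.574%) were called higher in nuclei and 818 (7.01%) lower, and the median log2 ratio was -0.13. Of the 9 markers 7 passed the floor, 0 were called higher and 1, TNC, was called lower. Their median log2 ratio was -0.46.

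TNC was at 16.7 (16.1 to 17.4) CPM in cells and 8.01 (7.37 to 8.69) in nuclei, a log2 ratio of -1.06 and 2.09-fold lower. The gene DELEC1, which overlaps TNC on the opposite strand, had 2013 transcripts in cells and 295 in nuclei against 2634 and 578 for TNC, and without knowledge of strand in the counting, reads of the 2 genes cannot be told apart. FAM107A was at 16.7 (16.1 to 17.4) in cells and 9.62 (8.91 to 10.4) in nuclei, a log2 ratio of -0.80. STAT3 was at 77.5 (76.2 to 78.9) and 48.1 (46.5 to 49.7), a log2 ratio of -0.69, and IL6ST at 38.5 (37.6 to 39.5) and 28.1 (26.9 to 29.4), a log2 ratio of -0.46.

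PTPRZ1, LIFR and PTN were nearer to equal. PTPRZ1 had 666 CPM in cells and 601 in nuclei, a log2 ratio of -0.15. LIFR had 81.9 and 82.5, a log2 ratio of 0.01, and PTN had 120 and 147, a log2 ratio of 0.29. PTN and LIFR lay above the median gene and PTPRZ1 next to it. HOPX, at 2.29 and 1.12, and MOXD1, at 4.16 and 3.64, were below the floor in both libraries.

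Within radial glia-marker barcodes alone the order was similar. PTN went from 195 CPM in cells to 256 in nuclei, a log2 ratio of 0.39, and LIFR from 106 to 122, a log2 ratio of 0.20. TNC went from 42.6 to 17.7, a log2 ratio of -1.27, FAM107A from 21.0 to 7.97, a log2 ratio of -1.40, and STAT3 from 74.7 to 37.1, a log2 ratio of -1.01. With this choice 3 of the 9, TNC, FAM107A and STAT3, were past 2-fold lower, beside 7.60% of the 11352 genes past the floor. In radial glia-marker nuclei FAM107A and STAT3 lay below the small barcodes, while TNC lay above them. The small barcodes were themselves lower in nuclei for all 3 genes. They were at 11.2 against 17.2 CPM for FAM107A, 46.9 against 74.2 for STAT3 and 8.55 against 24.7 for TNC. The part of free RNA in these 3 folds was not tested, so none of them is read as a difference in radial glia-marker expression. The class markers themselves differed between libraries, with 6 of 12 called lower, beside 7.01% of all genes, and a median log2 ratio of -1.07 over all kept barcodes, among them HES1 (-1.98) and VIM (-1.65), while scaling by the median ratio of all detected genes called 3 lower and 1 higher, beside 2.14% and 13.5% of all genes. Their part in these differences was not tested.

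Scaling by the median ratio of all detected genes (median-of-ratios scaling) instead of the total moved the median log2 ratio of the genes past the floor from -0.13 to 0.53. PTPRZ1 then had a log2 ratio of 0.52, IL6ST of 0.21 and MOXD1 of 0.48, so their direction rested on the scaling, and TNC, at -0.40, was no longer called. HOPX, TNC, FAM107A and STAT3 stayed below 0 and PTN above 0 under all 10 settings tried, although median-of-ratios scaling left STAT3 at only -0.02 and FAM107A at -0.13.

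**Figure D4:**
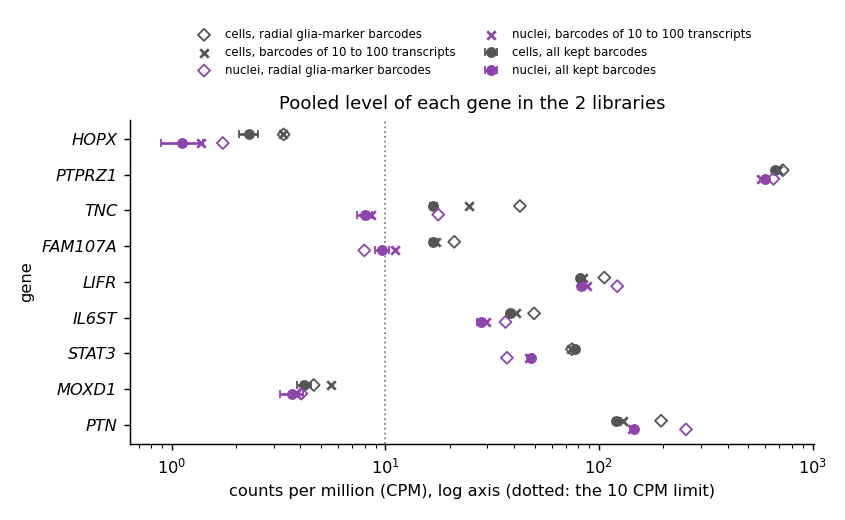
CPM (horizontal, log axis) of each gene over all kept barcodes (filled, with exact 95% intervals), in radial glia-marker barcodes (open diamonds) and in barcodes of 10 to 100 transcripts (crosses) of both libraries. TNC and FAM107A lie lower in nuclei, PTPRZ1 and LIFR nearly coincide, PTN lies slightly higher in nuclei, and HOPX and MOXD1 lie left of the 10 CPM limit.

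Divided by the length of the gene body, the level in cells was highest for PTPRZ1, at 3.53 CPM per kilobase. Whether the transcript counts grow with gene or exon length was not tested, so the orders given here only describe the division. STAT3 and PTN followed at 1.03 each, IL6ST at 0.643, LIFR at 0.612, FAM107A at 0.264, TNC at 0.170, HOPX at 0.0675 and MOXD1 at 0.0394. In nuclei PTPRZ1 led with 3.18 and PTN followed with 1.26. On exon length alone PTN led in both libraries, with 73.7 and 90.4 per kilobase against 65.7 and 59.2 for PTPRZ1, since PTN has only 1.62 kb of exon in a gene of 116 kb.

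In GRCh38, PTN spans chr7:137227341-137343774 and PTPRZ1 spans chr7:121873089-122062036. LIFR spans chr5:38474668-38608354 and IL6ST chr5:55935095-55995022, both on the minus strand, and STAT3 spans chr17:42313324-42388540. TNC spans chr9:115019575-115118207, FAM107A chr3:58564117-58627610, HOPX chr4:56647989-56681877 and MOXD1 chr6:132296055-132401475. LIFR overlaps LIFR-AS1, which had 1390 transcripts in cells against 12876 for LIFR. IL6ST overlaps the antisense RNA ENSG00000249236, with 1167 against 6063, and FAM107A overlaps FAM3D-AS1, with 533 against 2632.

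Partners of the 9 genes were listed to give the pathway around them. Of 18 genes of LIF and IL-6 family signalling, 8 passed the floor, 1 was called higher in nuclei and 0 lower, beside 0.574% and 7.01% of all genes, with a median log2 ratio of -0.17. Median-of-ratios scaling gave the same counts but called 13.5% of all genes higher, so that 1 of 8 is then near the background. The gene called was CNTFR, the CNTF receptor subunit that pairs with LIFR and IL6ST, at 58.3 CPM in cells and 119 in nuclei, a log2 ratio of 1.03. CNTFR was seen in 7.34% of radial glia-marker against 4.34% of neuron-marker cells, and in 18.6% against 5.98% of nuclei. The kinases JAK1 and JAK2, which act below the receptor, had 189 and 69.8 CPM in cells and 174 and 74.6 in nuclei. The ligands were scarce: LIF was at 0.890 CPM in cells and 0.471 in nuclei, CNTF at 1.37 and 1.04, and SOCS3, a feedback target of STAT3, at 0.737 and 0.291.

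Of 8 partners of PTN and PTPRZ1, 7 passed the floor, 0 were called higher and 1 lower in nuclei, beside 0.574% and 7.01% of all genes, with a median log2 ratio of 0.11. Median-of-ratios scaling called 2 of them higher, TNR and PTPRG, and 1 lower, beside 13.5% and 2.14% of all genes. MDK, the other ligand of the PTN family, was at 13.6 and 4.23 CPM, a log2 ratio of -1.69. PTPRG, the phosphatase most like PTPRZ1, was at 797 and 1081 CPM and was seen in 53.6% of radial glia-marker against 44.7% of neuron-marker cells. The binding partners CNTN1 and TNR leaned to neurons, with CNTN1 in 14.7% of neuron-marker and 3.65% of radial glia-marker cells and TNR in 5.05% and 1.23%.

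Of 3 other genes reported for outer radial glia, ACSBG1, SLCO1C1 and ITGB5, 1 passed the floor and 0 were called. ITGB5, an integrin subunit, was at 11.9 and 9.38 CPM, and the other two were at 2.83 and 2.78 CPM or less. Of 8 genes reported for ventricular or truncated radial glia, 6 passed the floor and 4 were called lower in nuclei, namely FBXO32, HEY1, CCN1 and CCN2, beside 7.01% of all genes. Under median-of-ratios scaling only CCN1 and CCN2 of these were called lower, beside 2.14% of all genes. Among markers of other glia, 0 of 5 astrocyte genes passed the floor. GFAP was at 2.21 CPM in cells, AQP4 at 0.261, S100B at 0.966, ALDH1L1 at 4.09 and GJA1 at 5.58. Within radial glia-marker barcodes ALDH1L1 was at 6.075 CPM in cells and 8.90 in nuclei, against 5.97 and 5.50 in the small barcodes. GFAP was there at 3.46 and 1.62 against 3.32 and 1.07, GJA1 at 3.83 and 0.578 against 5.77 and 2.29, and S100B at 0.3645 and 0.462 against 1.05 and 0.153. AQP4 was at 0.304 and 0 against 0.611 and 0.305. Of 5 genes of oligodendrocyte precursors, 2 passed the floor and 0 were called, while median-of-ratios scaling called 1, PCDH15, higher in nuclei, beside 13.5% of all genes. OLIG1 and OLIG2 had 0 transcripts in the radial glia-marker barcodes of either library, and the other genes of the list were there at or below the level of free RNA. PCDH15 was at 31.5 CPM in cells and 16.2 in nuclei against 61.0 and 95.6 in the small barcodes, PDGFRA at 6.99 and 2.43 against 18.1 and 13.7, and SOX10 at 1.82 and 1.5 against 1.78 and 2.29.

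First-round wells were smaller and more numerous in cells, with 55 to 2606 kept barcodes in 46 wells against 567 to 2371 in 12, so that counting error alone widens the range of rare genes there. PTPRZ1 was seen in 7.54% to 66.8% of the kept barcodes of a cells well, with a median of 45.6% over these wells, and in 30.1% to 46.2% of the 12 nuclei wells. PTN ranged from 2.56% to 21.8% in cells, with a median of 8.31%, and from 5.49% to 16.6% in nuclei. TNC ranged from 0% to 11.6%, with a median of 1.31%, and in nuclei from 0.319% to 1.70%. LIFR ranged from 2.68% to 15.3% in cells.

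Single wells set the upper ends. Well 8, with 2606 barcodes and 12.9% of the kept cells, had the highest share of both LIFR, 15.3% (14.0 to 16.8), and PTN, 21.8% (20.2 to 23.4), with 4.53% of its barcodes in the radial glia-marker class. Without this well, and with a separate draw of transcripts, PTN was seen in 12.7% of radial glia-marker and 7% of neuron-marker cells, and LIFR in 8.39% and 5.69%. Well 3, with 164 barcodes of which 29.9% were radial glia-marker, had the highest share of TNC, 11.6% (7.12 to 17.5), and 0 barcodes with FAM107A at 1000 transcripts, although it held 16 FAM107A transcripts without thinning, or 9.86 CPM against a median well of 13.4. Well 48 had the highest share of FAM107A, 8.98% (6.74 to 11.7), and of IL6ST, 7.90% (5.80 to 10.5). It had 22.8% choroid plexus-marker barcodes against a median well of 2.02%. Of its 38 radial glia-marker barcodes, 10.5% held FAM107A, 10.5% IL6ST and 18.4% PTPRZ1. The medians over wells with at least 20 such barcodes were 0.633%, 4.46% and 52.8%. Well 42, with the highest choroid plexus-marker share of 33.7%, had the second highest share of FAM107A, 5.04%, and the highest of STAT3, 15.1% (11 to 20.1). The part of choroid plexus-marker barcodes in these well values was not tested.

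In nuclei wells 8, 9 and 10 held the 3 highest shares of PTPRZ1, 45.9%, 42.8% and 46.2%, of PTN, 15.1%, 14.4% and 16.6%, and of TNC, 1.70%, 1.17% and 0.930%. Their radial glia-marker shares, 12.4%, 12.8% and 13.3%, lay inside the range of 10.9% to 19.8% over the 12 wells. Within the radial glia-marker class PTN was seen in 31.6% of 301 nuclei of well 10 and in 23.4% of 167 nuclei of well 8, against a median of 12% over wells. Which organoids these wells held is not known here.

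**Figure D5:**
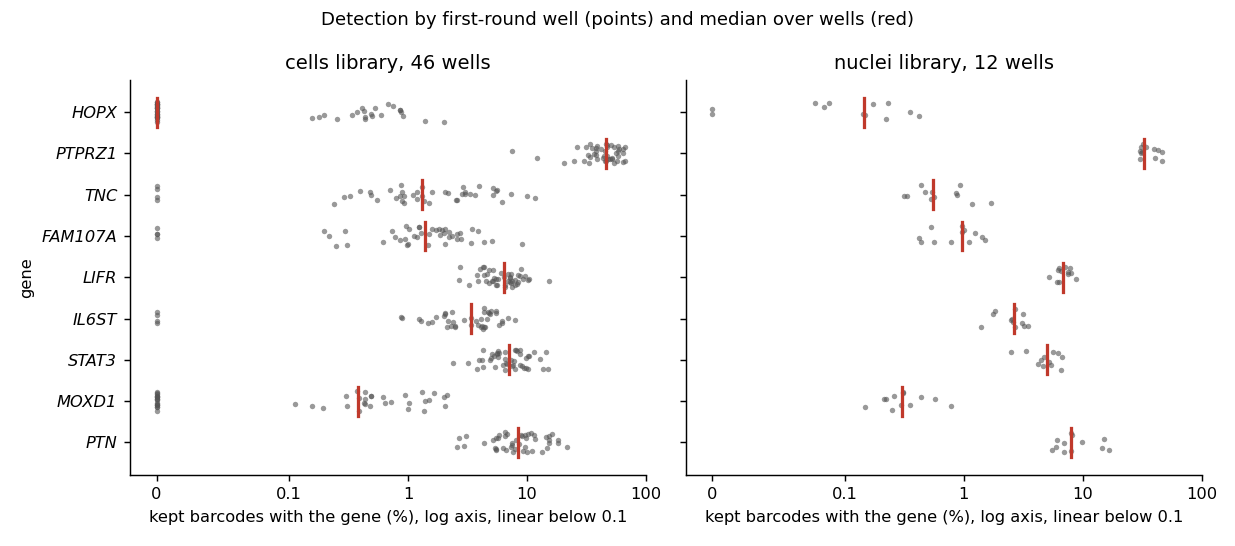
Percent of kept barcodes with each gene among 1000 transcripts (horizontal, log axis that is linear below 0.1) in each first-round well (points) with the median over wells (red line), for 46 wells of cells and 12 of nuclei. LIFR spans 2.68% to 15.3% in cells and 5.16% to 8.71% in nuclei; cells wells are more and smaller, and the ranges of the rare genes there rest on few barcodes, as for HOPX with a highest share of 2.02% in a well of 99.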

How the data were processed

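Split-seq counts were used from 1 cells and 1 nuclei library. The authors deposited unfiltered whole-number transcript counts per gene and barcode, made by sub-library with software of Parse Biosciences against GRCh38, beside barcode tables with totals, wells and sub-libraries. Count totals were 254967545 transcripts in cells and 82339738 in nuclei. Whether counting used strand, and whether introns were counted, was not given in the sources used here. Barcodes were kept above 500 genes and 1000 transcripts with at most 20% mitochondrial counts, thinned without replacement to 1000 transcripts (numpy 2.4.6), and put into classes by marker number. Shares have exact binomial (Clopper-Pearson) and counts exact Poisson intervals at 95% (scipy 1.17.1), and cover counting error only. With 1 sample per library no test was run. A count of 0 allows up to 3 counts. Odds ratios within wells are Mantel-Haenszel estimates. Radial glia-marker and neuron-marker shares were compared in wells with at least 20 barcodes of each class. Wells were compared where they had at least 50 barcodes. Neighbours were the 3 genes with the highest phi among genes in at least 2% of the class. Coordinates and lengths came from GENCODE 44. The code was tested on simulated data. The 9 genes and all lists were chosen with earlier results of these data known. Named genes were the 9 members, their neighbours, and list genes past 2-fold. Other list genes (JAK1, JAK2, LIF, CNTF, SOCS3, PTPRG, CNTN1, TNR, GFAP, AQP4, S100B, ALDH1L1, GJA1, OLIG1, OLIG2, PDGFRA, PCDH15, SOX10, HES1, VIM, ACSBG1, SLCO1C1, ITGB5), and single wells, were named after their values were seen. The division-gene reference pairs, thinning to 5000 transcripts, pairs without PTPRZ1, list calls under median-of-ratios scaling and leaving out the largest well were chosen after seeing the data. No protein or promoter sequence is shown.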

Additional observations from a re-analysis of the deposited data

How the results depend on the processing

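No paired analysis was possible because each library was 1 sample and no result came from a test. The share of radial glia-marker barcodes with at least 1 of the 9 genes, 66.6% in cells and 59.8% in nuclei, moved with depth: it was 44.7% and 37.9% at 500 transcripts, 84.5% and 82.4% at 2000, 91.9% and 86.7% without thinning, and 96.9% and 98.1% at 5000. It was 64.2% in cells without the largest well and 66.0% in nuclei with more than 5000 transcripts. The ratio of barcodes with at least 2 genes to the number from single shares, 1.01 and 1.06, became 0.903 and 1.18 at 500 transcripts and 0.849 and 0.932 without thinning. Nuclei against cells gave 1570 genes higher and 250 lower under median-of-ratios scaling, with 0 of the 7 members past the floor lower. At a floor of 50 CPM 173 genes were lower with 0 of the 9. Without a floor 1039 were higher and 15579 lower with 2 of the 9. In radial glia-marker barcodes alone 3 of the 9 were lower. Shares over all genes for the scaling and for the radial glia-marker barcodes are given above. For the floor of 50 CPM and for no floor they are not given here, so those member counts are not read as a result. HOPX and MOXD1 were below the 10 CPM floor of the main setting. Under all 12 settings of detection TNC, LIFR, IL6ST and PTN were seen more often in radial glia-marker than neuron-marker barcodes of both libraries; FAM107A was so in 12 settings for cells and 11 for nuclei, and PTPRZ1 in 3 and 10. STAT3 was so in 12 settings for cells and 0 for nuclei, and at 5000 transcripts it was lower in both. HOPX and MOXD1 rest on 5 and 12 radial glia-marker cells at 1000 transcripts. The causes were not tested.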
